A study of Drosophila melanogaster with 2 samples.

Results

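The 230 genes described here are the odorant receptor (Or), gustatory receptor (Gr), ionotropic receptor (Ir) and odorant-binding protein (Obp) genes of Drosophila melanogaster. They were chosen by symbol from the 13945 protein-coding genes of the main chromosome arms: Or, Gr, Ir or Obp followed directly by a digit. This gave 59 Or, 60 Gr, 60 Ir and 51 Obp genes. A gene had a site when the summit of a peak fell inside the gene or within the 2000 bp upstream of its outer annotated start, so the genes with sites were selected on the peak lists themselves. The genes were taken up with earlier binding results of these data known, and no test was made over them.

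The peaks come from chromatin immunoprecipitation sequencing (ChIP-seq) of 1 group of 2 biological replicates, with no second condition. The material was whole embryos collected 8 to 24 hours old, of a fly strain that carries the basic helix-loop-helix protein HLH3B as a fusion to eGFP, and the antibody was against GFP. The sequences that drive the fusion, the number of animals per replicate and the control were not analysed here. In whole embryos a site used in a few cells and a site used weakly in many cells cannot be told apart. There were 3846 peaks in the conservative series-level set and 5814 in the other series-level set. The replicate 1 list held 3992 peaks and the replicate 2 list 3546. The lists hold no read counts, so the depth is unknown.

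Odorant receptors are heteromeric ion channels in the membrane of olfactory neurons, each built from a tuning receptor and the common co-receptor Orco. Gustatory receptors mainly serve taste neurons, and ionotropic receptors are relatives of glutamate receptors that work with broadly used co-receptors such as Ir8a, Ir25a and Ir76b. Odorant-binding proteins are small secreted carriers made by support cells of the sensilla and by other tissues. Most of these genes are short, many stand in tandem arrays, and each receptor is as a rule used by few neurons.

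Sites were scarce at chemosensory genes. In the conservative set 9 of the 230 genes had a site, or 3.91% (Wilson 95% interval 2.07 to 7.27%), against 23.1% of all protein-coding genes. Those 9 were Or88a, Or9a, Or10a, Gr32a, Gr5a, Gr10a, Ir94c, Obp99b and Obp99c, and the other 221 genes had none. The 9 genes shared 9 distinct sites, since Obp99b had 2 and the site upstream of Or10a was also that of Gr10a. Intervals here cover counting error only, and they treat genes as independent although many stand in arrays.

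The sequences of 6 of the 9 sites are shown, because they are the 4 sites whose nearest start is that of a chemosensory gene and the pair of strongest intergenic sites that lie between a receptor gene and a neighbour. Each is the 101 bases centred on a summit of the conservative set, read from the RefSeq copy of the Release 6 genome (dm6), plus strand, 5′ to 3′. Capitals mark E-boxes (CANNTG, the general site of basic helix-loop-helix proteins) and GATA motifs (the letters GATA after A or T and before A or G, on either strand).
Obp99b, near site (chr3R:29717091-29717191): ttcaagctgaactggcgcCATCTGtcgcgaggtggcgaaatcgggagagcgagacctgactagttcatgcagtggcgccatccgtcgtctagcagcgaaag
Obp99b, far site (chr3R:29717676-29717776): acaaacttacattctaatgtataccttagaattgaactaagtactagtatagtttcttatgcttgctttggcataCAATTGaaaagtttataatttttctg
Obp99c (chr3R:29690588-29690688): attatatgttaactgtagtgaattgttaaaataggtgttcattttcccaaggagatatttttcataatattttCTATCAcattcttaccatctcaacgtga
Gr10a and Or10a (chrX:11419370-11419470): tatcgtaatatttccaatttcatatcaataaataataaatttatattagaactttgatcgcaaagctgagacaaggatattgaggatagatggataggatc
Or88a (chr3R:14108773-14108873): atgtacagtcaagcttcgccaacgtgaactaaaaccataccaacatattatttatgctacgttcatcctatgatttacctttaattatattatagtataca
Gr32a (chr2L:11113181-11113281): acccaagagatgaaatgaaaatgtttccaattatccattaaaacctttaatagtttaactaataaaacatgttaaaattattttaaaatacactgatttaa

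The near site of Obp99b held an E-box of the class CAGATG, to which proteins of the Tal1 kind are known to bind; this class was in 2.81% of all 3846 windows of the conservative set. The far site of Obp99b held CAATTG, found in 4.45% of all windows. The window at Gr5a, not printed, held CAAATG, found in 9.98% of all windows. An E-box of any kind was thus in 3 of the 9 windows, or 33.3%, against 33.2% of all windows. Obp99c had the only GATA motif among the 9, against 22.4% of all windows. The hexamer TTAAAA, searched on both strands, was in 2 of the 9 windows, those of Gr32a and Obp99c, against 35.4% of all windows. G+C content ran from 20.8% at Gr32a to 58.4% at the near site of Obp99b, with a median of 27.7% against 30.7% over all windows. A match is a description of letters and was not read as a binding site.

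All 4 gene families had few sites. Among Or genes 3 of 59 had a site (5.08%, Wilson 95% interval 1.74 to 13.9%), and among Gr genes 3 of 60 (5.0%, 1.71 to 13.7%). The Obp genes had 2 of 51 (3.92%, 1.08 to 13.2%) and the Ir genes 1 of 60 (1.67%, 0.295 to 8.86%). The 4 intervals overlap widely, and differences between families were not detectable at these counts. Each family share was below the 23.1% of all protein-coding genes. This is a description and was not tested, since the genes were taken up with earlier results known.

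**Figure D1:**
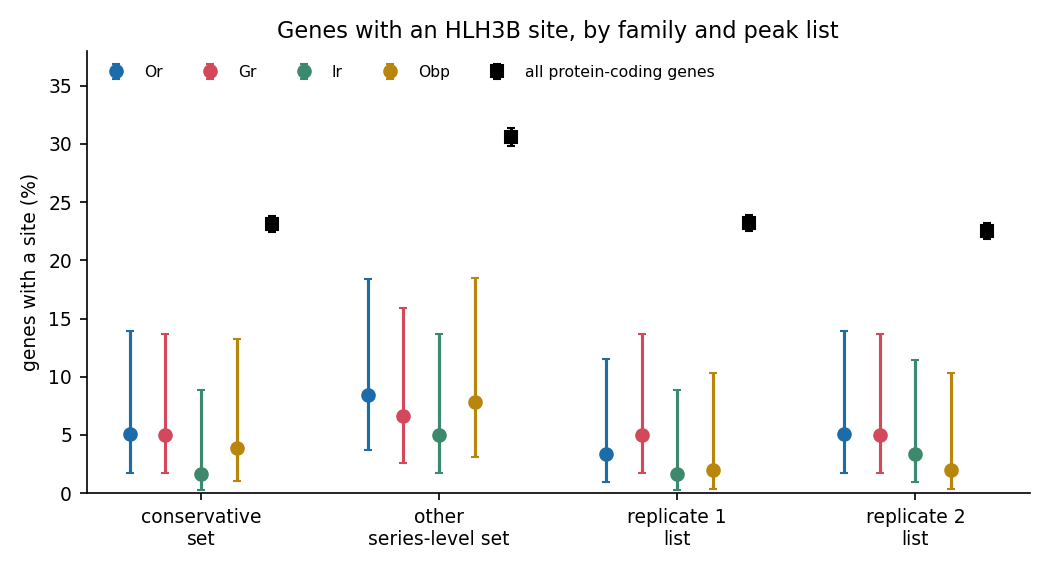
Share of genes with a site (vertical axis, %) in each of the 4 thresholded peak lists (horizontal axis), for the Or, Gr, Ir and Obp families (circles) and all protein-coding genes (black squares). Bars are Wilson 95% intervals. The family shares lie between 1.67 and 8.47%, and the black squares between 22.5 and 30.6%.

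The other lists gave low counts as well. In the other series-level set 16 of 230 genes had a site, or 6.96% (4.33 to 11.0%), against 30.6% of all protein-coding genes. The replicate 1 list gave 7 genes, or 3.04%, against 23.2% of all protein-coding genes. The replicate 2 list gave 9 genes, or 3.91%, against 22.5%. Across the 4 lists 17 genes had a site in at least 1, and 213 had none. Shares of all protein-coding genes across lists were not computed. Neither these counts nor the next is therefore read as a trait of chemosensory genes. The genes in all 4 lists were 6 in number: Or88a, Or10a, Gr10a, Gr32a, Ir94c and Obp99b. Or10a and Gr10a share their interval and their sites. Their summit lay 1044 bp upstream in the replicate 2 list and 1998 bp upstream in the others, so no single site of theirs recurred in all lists.

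Chemosensory genes are shorter than most, which narrows the window in which a summit can fall. Their median length was 1498 bp, against 2166 bp for all protein-coding genes. Between the quartiles of their length, 1233 and 1907 bp, 5 of 115 chemosensory genes had a site, or 4.35% (1.87 to 9.78%), against 17.1% of all protein-coding genes of that length. Per length of sequence, the merged upstream windows of the chemosensory genes held 9 summits in 435.4 kb, or 20.7 per Mb (exact Poisson 95% interval 9.45 to 39.2). The upstream windows of all protein-coding genes held 67.5 per Mb (64.2 to 70.9). The part of gene length in the low count was not tested.

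No summit of the conservative set lay inside a chemosensory gene. Their merged bodies span 527.6 kb, in which a count of 0 has an exact Poisson 95% upper limit of 6.99 summits per Mb, against 25.1 per Mb in the bodies of all protein-coding genes. Without Ir41a (104437 bp) and Ir40a (24851 bp), the longest genes of the group, the bodies span 398.3 kb and the same limit is 9.26 per Mb. In the other 3 lists 1 gene had a summit in its body, the co-receptor gene Ir25a, described below.

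Starts of chemosensory genes were seldom next to a summit. Only Obp99b had a summit of the conservative set within 500 bp of one of its own starts, 1 of 230 genes or 0.435% (0.0768 to 2.42%), against 14.2% of all protein-coding genes. The median distance from a start to the nearest summit was 23163 bp for Or genes, 20094 bp for Ir genes, 19185 bp for Gr genes and 12400 bp for Obp genes. Over all protein-coding genes it was 9777 bp. The farthest were Ir41a, at 1135391 bp, and Ir40a, at 346917 bp.

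**Figure D2:**
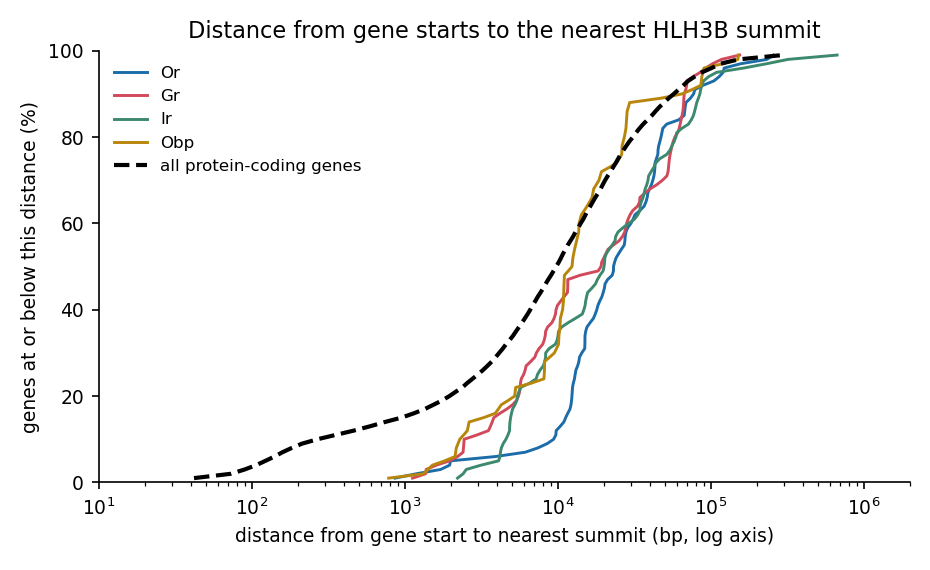
Distance from a gene's start to the nearest summit of the conservative set (horizontal axis, bp, log scale) against the share of genes at or below that distance (vertical axis, %), drawn from percentiles 1 to 99. Solid lines are the 4 families and the dashed line all protein-coding genes. At the medians the families lie between 12400 bp (Obp) and 23163 bp (Or), to the right of all protein-coding genes at 9777 bp. Above its median the Obp line crosses the dashed line more than once.

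The base composition around starts differed little. From 250 bases before to 50 after the start, the median G+C content was 39.5% for the chemosensory genes (quartiles 35.5 and 44.5%) and 37.9% for all protein-coding genes (33.2 and 44.2%).

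Among the odorant-binding protein genes, Obp99b had the strongest site of the group. The gene (FBgn0039685, 3R, 29716254 to 29716896, minus strand, dm6) had an intergenic peak of 100 bp with its summit 245 bp upstream and a signal of 203.9, rank 1109 of 3846. All signals are the authors' values and rank peaks within a list only. Its candidates reached 137 in replicate 1 and 67.8 in replicate 2. A further summit of the conservative set lay 830 bp upstream of Obp99b (peak 29717558 to 29717893 on 3R) at a signal of 95.13. Its candidates had signals of 53.8 and 42.2 in replicates 1 and 2. Both Obp99b sites were in all 4 lists, and no other start was nearer to either. Obp99b was the only chemosensory gene with more than 1 conservative site.

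Obp99c had the weakest of the 9 sites. The gene (FBgn0039682, 3R, 29685736 to 29689311, minus strand) had an intergenic summit 1327 bp upstream with a signal of 85.32, rank 3272. Its candidates had signals of 50.4 and 35.1 in replicates 1 and 2, with −log10 IDR values of 1.02 and 0.569. The IDR (irreproducible discovery rate) is low where a peak has a like rank in repeats. Both values are short of the threshold of 2, an IDR of 0.01, and Obp99c had no site in the other 3 lists. The Obp99a and Obp99d genes nearby had no site in any list.

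Among the odorant receptor genes, Or88a had the strongest site. Or88a encodes a receptor of antennal neurons that respond to odours of other flies (FBgn0038203, 3R, 14109445 to 14110823, plus strand). Its intergenic peak of 135 bp had its summit 622 bp upstream with a signal of 188.8, rank 1244. The candidate signals were 98.5 and 76.6 in replicates 1 and 2. The start of CG12402, which runs the other way, was nearer to the summit, at 502 bp. The summit therefore lies between 2 divergent genes.

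The Or9a site lay next to the start of a neighbour. Or9a, an antennal odorant receptor gene (FBgn0030204, X, 10458186 to 10459676, minus strand), had a summit 1043 bp upstream with a signal of 100.4, but that summit was 17 bp from the start of Neb-cGP. In replicate 1 the candidate signal was 52.9 with a −log10 IDR of 0.331, and in replicate 2 it was 49.8 with 2.71. Or9a had a site in the replicate 2 list and not in the replicate 1 list.

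Or10a and Gr10a are annotated with the same interval (X, 11413467 to 11417422, minus strand), so their values are not independent. Or10a (FBgn0030298) encodes a receptor for methyl salicylate and is used in the same antennal neurons as Gr10a (FBgn0045502). Their shared site was intergenic, 1998 bp upstream, with a signal of 92.84, rank 3060. In replicate 1 the candidate there reached 51.04 with a −log10 IDR of 2.31, and in replicate 2 it reached 41.3 with 1.91, just short of the threshold. The replicate 2 list had another summit in this window, 1044 bp upstream, with a signal of 43.48 and no candidate of replicate 1 within 100 bp. The 2 lists thus place the site of this locus at different positions. The neighbour Gr10b, which is in the same array, had no site in any list.

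Both remaining gustatory receptor sites lay at neighbours that run the other way. Gr32a, a receptor for bitter compounds and for a pheromone that inhibits male courtship (FBgn0041246, 2L, 11114014 to 11115823, plus strand), had an intergenic summit 783 bp upstream with a signal of 125.9. The candidate signals were 76.3 and 58.1 in replicates 1 and 2. That summit was 170 bp from the start of Idua, the gene of a lysosomal iduronidase.

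Gr5a, a receptor for the sugar trehalose (FBgn0003747, X, 5680617 to 5682488, plus strand), had a summit 1388 bp upstream with a signal of 89.39. It lay in an intron of Tre1, which encodes a receptor that guides migrating germ cells, 748 bp from a Tre1 start. The candidate signals were 48.9 in replicate 1, past the threshold, and 39.8 in replicate 2, where the −log10 IDR was 0.722. Gr5a had no site in the replicate 2 list.

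Ir94c was the only ionotropic receptor gene with a conservative site. The gene (FBgn0051423, 3R, 22117640 to 22119454, minus strand) had its summit 1984 bp upstream, in an intron of CG42390 and 1377 bp from a CG42390 start, with a signal of 141.7, rank 1875. The candidate signals were 84.4 and 53.0 in replicates 1 and 2. Ir94a and Ir94b, next to Ir94c in the same array, had no site in any list. None of the co-receptor genes Ir8a, Ir25a and Ir76b had a conservative site, and their starts lay 34601, 2570 and 71938 bp from the nearest summit.

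Of the 9 sites, 5 were nearer to the start of a neighbour than to that of a chemosensory gene, and all 5 of these neighbours lie on the opposite strand. The other 4, at Obp99b, Obp99c and the Or10a and Gr10a locus, had a chemosensory start as the nearest. Summits were intergenic at 7 sites and intronic at 2. No matching shares over all protein-coding genes are given, so these counts are not read as a trait of chemosensory genes. The median signal of the 9 sites was 100.4, against 139 for the whole set, and 6 of the 9 were below the latter.

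**Figure D3:**
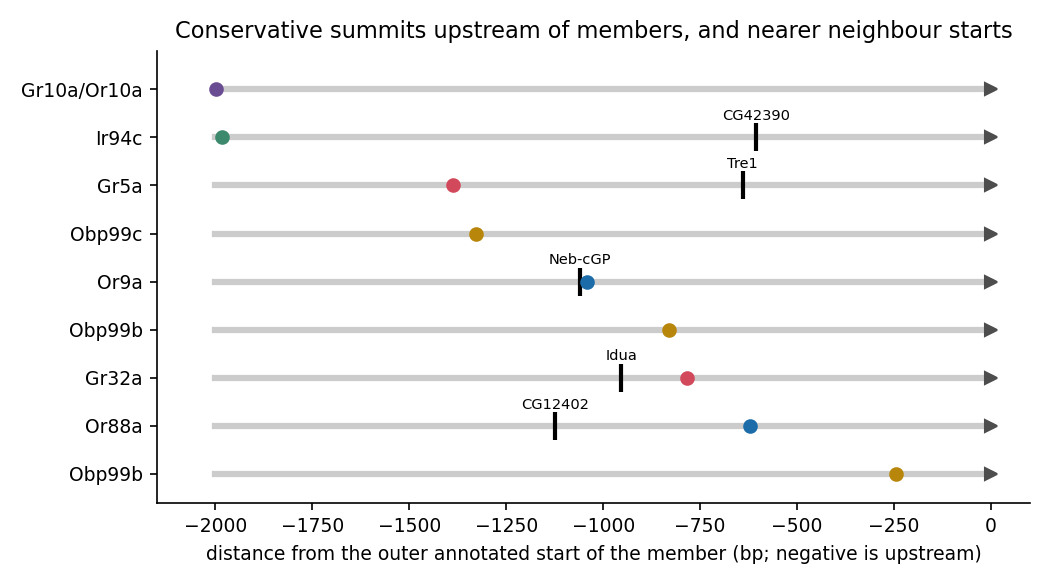
Position of the 9 conservative summits (circles) relative to the outer annotated start of the chemosensory gene (arrowhead at 0; horizontal axis in bp, negative upstream), with the 2000 bp window in grey. Black ticks are starts of neighbours that are nearer to the summit. Circle colours are as in the plot of shares, and purple marks the site that Gr10a and Or10a share. The summits at Or9a and Gr32a are 17 and 170 bp from a neighbour's start, and 4 summits have no nearer neighbour.

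Sites were counted apart for genes with and without the start of any other gene in the 2000 bp upstream, relatives of the same family included. With another gene's start there, 6 of 105 chemosensory genes had a site, or 5.71% (2.64 to 11.9%), against 27.8% of such protein-coding genes. Of the rest of the 230 genes, which have none, 3 had a site, or 2.40% (0.82 to 6.82%), against 16.8%. With another gene's start on the opposite strand, 6 of 63 had a site, or 9.52% (4.44 to 19.3%), against 31.0%. The chemosensory intervals of these classes overlap. Another gene's start lay upstream of 45.7% of chemosensory genes, from 31.7% of Ir to 61.7% of Gr genes, and of 57.4% of all protein-coding genes. In each class the chemosensory share was below that of all protein-coding genes, which was not tested. The part of neighbours in the low total was not tested either.

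Arrays and single genes were counted apart. With genes up to 10 kb apart taken as 1 array, 5 of 117 single genes had a site, or 4.27%. In pairs 1 of 30 had one, and in arrays of 3 or more 3 of 83 did, or 3.61%. The share was 3.91% over all 230 genes and 23.1% over all protein-coding genes. The 5 arrays of 5 or more genes, Obp56, Gr64, Ir7, Gr22 and Obp50, held 28 genes with no conservative site. Obp56d, 1 of these 28, had a site in the other series-level set. With so few genes, the count of 0 is not read as a difference between large arrays and the other genes of the group.

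Replicate 1 gave the higher signal at all 9 sites, on a scale that is not shared between lists. In their own candidate lists, 5 sites were past the IDR threshold in both replicates, 3 in 1 replicate and 1 in neither. The 5 were the near and far sites of Obp99b and those of Or88a, Ir94c and Gr32a. The conservative set was itself chosen for ranks that repeat, so these values describe the sites and do not test them. Matching shares over the whole conservative set were not computed, so the counts are not read as a trait of these sites.

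**Figure D4:**
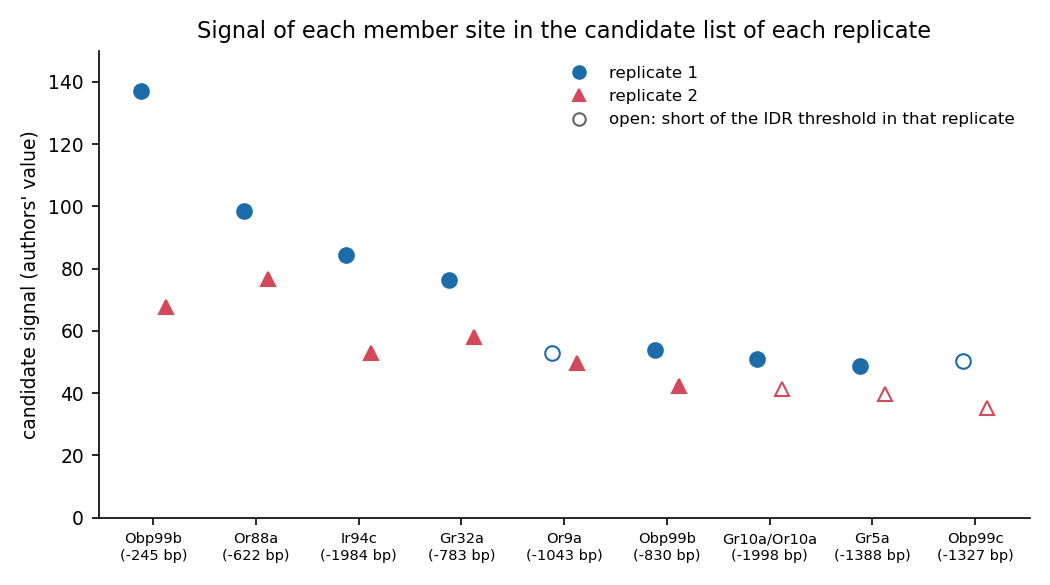
Signal of the candidate peak within 100 bp of each of the 9 conservative summits (vertical axis, the authors' value) in replicate 1 (circles) and replicate 2 (triangles), ordered by signal in the conservative set, with the distance upstream of the gene under each name. Open symbols are candidates short of the IDR threshold in that replicate. The values run from 137 and 67.8 at the near site of Obp99b to 50.4 and 35.1 at Obp99c, where both symbols are open.

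A further 8 genes had a site outside the conservative set only. The matching share of all protein-coding genes was not computed. Gr97a and Ir48b had one in both the other series-level set and the replicate 2 list. At Gr97a (FBgn0041224) the summit was 1351 bp upstream in the former, with a signal of 86.51. It lay in an intron of the divergent gene CG5521, 906 bp from a CG5521 start. Its candidates had −log10 IDR values of 1.59 and 0.0793 in replicates 1 and 2. The replicate 2 list placed the Gr97a summit 1248 bp upstream, with a value of 3.23. At Ir48b (FBgn0033648) the summit of the other series-level set was 1700 bp upstream with a signal of 72.99, and no other start was nearer. Its candidates had −log10 IDR values of 0.152 in replicate 1 and 2.25 in replicate 2. The larval odorant receptor gene Or45b (FBgn0033422) had a summit 1966 bp upstream with a signal of 72.89, in the other series-level set. The −log10 IDR values there were 1.04 and 0.45 in replicates 1 and 2, both short of the threshold.

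The remaining genes of this kind were named after their values were seen. Or92a, a receptor gene for butanedione, had a summit 1002 bp upstream with a signal of 64.74, which was 40 bp from the start of the metallothionein gene MtnB. Obp83g and Obp83ef shared a summit 317 and 1585 bp upstream, with a signal of 65.58. Obp56d had a summit 1240 bp upstream with a signal of 67.19. Ir25a had its summit in a coding exon, 4019 bp from its own start and 588 bp from the start of Fnta, a farnesyltransferase subunit gene, with a signal of 60.63. In replicates 1 and 2 the Ir25a candidates had −log10 IDR values of 0.912 and 0.107, both short of the threshold. Those of Obp83g and Obp83ef had 0.127 and 1.0, and those of Obp56d 0.682 and 1.92, also short of it. Or92a had no replicate 1 candidate within 100 bp, and its replicate 2 value of 1.53 was short as well.

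Values near the limits of the rule were as follows. Just inside 2000 bp lay the site of Or10a and Gr10a, at 1998 bp, and that of Ir94c, at 1984 bp. Just outside lay a summit 2375 bp upstream of Ir48c (signal 356), which was 1502 bp from a start of ths, and one 2448 bp upstream of Gr93d (signal 109). A summit 2531 bp upstream of Gr5a had a signal of 297, above the 89.39 of the counted Gr5a site, and was 1128 bp from a start of Tre1. A summit 2570 bp upstream of Ir25a had a signal of 1150 and was 129 bp from the start of tank. Among candidates compared between replicates, the lowest past the threshold in these windows was that of Obp99c, with a −log10 IDR of 2.389, and the highest short of it was that of Obp56d, with 1.96.

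A candidate of any rank was less common too. Of the 230 genes, 131 had a candidate of any rank in their window, or 57.0%, against 76.9% of all protein-coding genes. These shares include candidates past the threshold, which were at 9 chemosensory genes and at 23.4% of all protein-coding genes. The share with weak candidates alone was not computed, and the windows were not matched for length. Over the genes with a candidate, the median of the best −log10 IDR was 0.243, against 0.659 over all protein-coding genes with one. Candidates past the threshold are included, and a longer window holds more candidates from which the best is taken. By family the share with a candidate was 45.8% for Or, 53.3% for Ir, 61.7% for Gr and 68.6% for Obp genes. No candidate past the threshold in these windows was left out of the conservative set.

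Other chemosensory genes were counted in lists also chosen with earlier results known. Of 10 accessory proteins such as Orco and the pheromone carrier gene lush, 1 had a conservative site, the ammonium transporter gene Amt (signal 148), whose summit was nearer to the start of CG42404. Of 7 pickpocket taste channel genes 1 had a site, ppk29 (signal 178), with its summit 4 bp from the start of the translation factor gene eEF5. Of 20 CheA and CheB genes 2 had a site, CheA56a (signal 188) and CheA75a (signal 120). The CheA56a summit was 41 bp from the start of CG30122, while CheA75a had the nearest start to its own, at 1106 bp. These lists are too small to be read against the 23.1% of all protein-coding genes.

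Regulators of chemosensory organs and receptor choice had a site in 6 of 21 genes, or 28.6%, near the 23.1% of all protein-coding genes. Their median length of 20846 bp was far above that of the receptor genes. The stress-response transcription factor gene Xbp1 had its summit 77 bp upstream of a start, at a signal of 229. Its candidates had signals of 77.8 and 154 in replicates 1 and 2. The homeodomain gene ct had a signal of 179 with an intragenic summit, and zf30C and Alh had signals of 155 each, with summits 51 and 56 bp from their own starts. bab1 and bab2, named after their values were seen, were the others.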

How the data were processed

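ChIP-seq of HLH3B-eGFP was analysed from the authors' deposited peak lists (dm6, per the labels). Each list gives positions, a summit, a signal value and a score. The unit of the signal was not stated beside the lists the authors deposited. The score was deposited as a rescaled irreproducible discovery rate (IDR), and ranked candidate lists deposited by the authors add its −log10. The IDR threshold of 0.01 was read from the lowest scores of the thresholded lists. Names and versions of the aligner and peak caller: not given in the sources used here.

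A summit was the peak start plus its offset, in 1-based coordinates. Genes came from Ensembl release 115 (BDGP6.54), without transposable elements, and sequence from RefSeq Release 6. Every peak on the arms used fitted inside that sequence. 38 peaks of replicate 2 and 2 of the other series-level set lay on other sequences and were left out, as were 7 pseudogenes. Nearest starts were taken over all annotated transcripts. Replicate values are those of the candidate nearest a summit within 100 bp. Shares carry Wilson 95% intervals and densities exact Poisson 95% intervals. With 1 group there was no comparison between conditions, and no test was made.

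Members and lists were chosen with earlier results of these data known. The genes named were all those with a conservative site, those with sites in 2 or more other lists, the 3 of highest signal per other list, the co-receptors Ir8a, Ir25a and Ir76b, and up to 4 per other gene list by signal. Comparisons by own start, by interval, by length and by neighbouring starts were added after the data were seen. The placing of summits in windows was checked on simulated positions. Tables were handled with pandas 2.3.3 and numpy 2.4.6 under Python 3.11.15, intervals came from scipy 1.17.1, and plots were drawn with matplotlib 3.10.9.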

Additional observations from a re-analysis of the deposited data

How the results depend on the processing

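The low count of chemosensory genes with a site depended on the window and the list in size, and stayed below the share of all protein-coding genes in each setting for which that share was computed. With the gene body alone, genes with a site, distinct sites and sites nearest to a chemosensory start were all 0, against 10.2% of all protein-coding genes with a site. With 1000 bp upstream they were 3, 4 and 2 (20.5% of all protein-coding genes), and with 5000 bp 24, 24 and 8 (30.2%). The other series-level set gave 16, 15 and 7. The part of the conservative set above its median signal gave 3, 3 and 1 (14.5%). A summit within 500 bp of an own start, added after the data were seen, left 1 gene. In these settings the window or the list itself is larger or smaller.

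The counts changed by no more than 1.5 times with peak intervals in place of summits, with all candidates past the threshold, with pseudogenes included, with genes of the same interval counted once, and with either replicate alone. With protein-coding starts only, the sites nearest to a chemosensory start stayed at 4. When each site went only to the genes with the nearest start, 9 chemosensory genes had one, against 16.9% of all protein-coding genes, but 5 of them were Or65c, Gr89a, Gr93a, Gr93d and Ir94a, whose windows hold none. Depth is unknown, so weak binding below the IDR threshold cannot be told from its absence. With 2 replicates and peak lists alone, the only view of the spread between replicates is the 7 and 9 genes of their own lists.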

Other observations

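Some sites lay closest to the start of a chemosensory gene without falling in its window. Gr89a had a summit of the conservative set 1364 bp from its start, on the downstream side and past the gene's end. The summits nearest to the starts of Gr93d, Gr93a, Ir94a and Or65c lay 2448, 3514, 4934 and 10908 bp away. The choice of these 5 genes followed their values.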
